A study of Homo sapiens with 8 samples.

Results

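The genes described here encode enzymes of central carbon metabolism: 19 of glycolysis and lactate formation, 6 of the pentose phosphate pathway and 14 of the pyruvate dehydrogenase complex and the tricarboxylic acid (TCA) cycle. They were taken by name from the deposited gene count table, and all 39 were found among its 58302 gene rows. All 39 also passed the filter on low counts, which left 14133 genes to test. No measured value was used to choose them, but they and the lists below were drawn up with earlier results of these data known.

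RNA sequencing measured transcripts in DLD1, an epithelial line from a human colorectal carcinoma, made stable for lentiviral wild-type TRMT6/TRMT61A (OE-WT) or for the empty vector (CTRL). TRMT6 and TRMT61A form the complex that writes N1-methyladenosine on tRNA. Each group had 2 libraries, each run on 2 lanes that the table does not separate. The paper describes its RNA-seq replicates as biological, but gives more of them than the libraries here. The labels do not say whether the libraries came from separate cultures. The p-values therefore measure the spread between these libraries, which may be technical. According to the labels the RNA came from a clarified lysate of cells washed with cycloheximide, and all comparisons are between lines of 1 parental cell type in culture. Total counts were 10460284 and 10327498 for OE-WT and 12379671 and 12063433 for CTRL. At this depth a count of 0 allows at most 0.302 CPM, counting error only. CPM (the usual per-library scaled counts) divide each count by its library's total after TMM scaling. TRMT6 measured 211 and 181 CPM in OE-WT against 52.6 and 55.4 in CTRL, and TRMT61A 138 and 130.4 against 58.9 and 56.8, in the direction of the labels, with reads from the construct included where they map. Of the colon epithelial markers, EPCAM, CDH1, KRT8, KRT18, KRT19 and CDX2 were present, while CDX1 was at or near 0, LGALS4 near 1 CPM and VIL1 between 2.8 and 4.53 CPM. Of 12 markers of fibroblasts, leukocytes and endothelium, 5 were at 0 in all 4 libraries, and the summed level of the 12 lay between 3.34 and 4.33 CPM in OE-WT and between 3.73 and 4.82 CPM in CTRL.

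Glycolysis splits glucose into pyruvate in the cytosol, with a net gain of ATP and NADH, and lactate dehydrogenase turns pyruvate into lactate to regenerate NAD+. The pentose phosphate pathway branches off at glucose 6-phosphate and yields NADPH and ribose for nucleotides. Pyruvate that enters mitochondria is made into acetyl-CoA by the pyruvate dehydrogenase complex and oxidized in the TCA cycle. Tumour cells often run glycolysis to lactate even when oxygen is present, and the transcription factors HIF-1 and MYC are known to raise many glycolytic transcripts.

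The start-site regions of 4 members are printed to show what stands before the genes whose transcripts lead the results. PKM, PGD and DLAT had the largest significant rise in each of the 3 pathways, and LDHA is a known HIF-1 target that did not pass the threshold here. Each sequence runs 5′ to 3′ from 250 bases before to 50 bases after the RefSeq start on GRCh38.p14, at chr15:72231141-72231440 (- strand) for PKM, chr1:10398814-10399113 (+ strand) for PGD, chr11:112025158-112025457 (+ strand) for DLAT and chr11:18394313-18394612 (+ strand) for LDHA. Capitals mark the hypoxia-response core letters ACGTG or GCGTG on either strand, where CACGT and CACGC are the same letters read on the other strand.
PKM: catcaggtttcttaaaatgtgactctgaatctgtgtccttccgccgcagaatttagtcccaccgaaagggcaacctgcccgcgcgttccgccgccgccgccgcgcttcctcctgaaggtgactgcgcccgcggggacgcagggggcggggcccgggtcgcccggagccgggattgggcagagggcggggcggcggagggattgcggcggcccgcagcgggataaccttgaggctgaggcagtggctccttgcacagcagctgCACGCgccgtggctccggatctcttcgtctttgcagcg
PGD: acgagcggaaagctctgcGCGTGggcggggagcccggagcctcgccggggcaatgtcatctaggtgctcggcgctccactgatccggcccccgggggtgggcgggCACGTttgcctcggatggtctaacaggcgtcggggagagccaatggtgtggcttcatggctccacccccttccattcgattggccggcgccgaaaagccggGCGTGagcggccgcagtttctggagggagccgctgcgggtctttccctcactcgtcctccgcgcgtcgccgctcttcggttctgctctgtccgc
DLAT: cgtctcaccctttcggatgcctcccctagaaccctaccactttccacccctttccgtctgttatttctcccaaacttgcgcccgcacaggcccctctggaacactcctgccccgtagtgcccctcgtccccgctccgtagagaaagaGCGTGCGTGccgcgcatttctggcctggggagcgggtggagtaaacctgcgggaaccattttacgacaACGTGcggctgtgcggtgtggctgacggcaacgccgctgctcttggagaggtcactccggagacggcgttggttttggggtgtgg
LDHA: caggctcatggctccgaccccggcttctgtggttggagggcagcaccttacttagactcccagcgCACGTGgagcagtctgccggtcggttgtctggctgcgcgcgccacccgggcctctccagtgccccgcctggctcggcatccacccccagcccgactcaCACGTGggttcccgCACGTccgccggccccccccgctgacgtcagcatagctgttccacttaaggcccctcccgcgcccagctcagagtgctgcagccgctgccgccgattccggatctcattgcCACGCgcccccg

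A RefSeq start-site region was matched for 38 of the 39 members, and for 31 of them the RefSeq start lay within 100 bases of the start of the canonical GENCODE transcript. The remaining 7, IDH2 and GAPDH among them, start elsewhere. Either core stood in 25 of the 38 regions (65.8%), against 48.4% of all 35116 human regions of this length. By pathway, 15 of 19 glycolysis genes, 2 of 6 pentose phosphate genes and 8 of 13 pyruvate dehydrogenase and TCA genes held one. It stood in 10 of the 12 members whose transcripts rose and in 14 of the 24 matched members that did not pass the test. The LDHA region held ACGTG 5 times, where a CACGTG reads as ACGTG on both strands and is counted on each. The PKM region held GCGTG 1 time and ACGTG 0 times. A GC box, GGGCGG on either strand, stood in 29 of 38 regions (76.3%), against 45.0% of all regions. These are letter matches and no sites of binding.

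OE-WT cells had modestly higher transcript levels of 6 glycolysis genes, 5 pyruvate dehydrogenase and TCA genes and 1 pentose phosphate gene. At an edgeR adjusted p below 0.05, 12 members rose and 2 fell, and 25 did not pass. Across all genes tested 9.44% were called higher, 11.6% lower and 21.1% in either direction. The changes were small, from a fall of 29.3% for IDH2 to a rise of 32.3% for DLAT, and 0 members reached the study's thresholds of an unadjusted p below 0.05 with an absolute log2 fold change above 1, which 3.15% of all genes passed (0.899% higher and 2.25% lower). DESeq2 also put 0 members past those thresholds, while 18 members were higher and 4 lower at an unadjusted edgeR p below 0.05. The share of all genes at that unadjusted p alone is not given here. The median log2 fold change of the members was 0.14, against 0.01 for all genes tested, and 25 of 39 lay above 0 against 51.1% of all genes. Both OE-WT libraries lay above both CTRL libraries for 22 members and below them for 9, where 29.9% and 30.2% of all genes did so. In bulk RNA, fewer cells expressing a gene and less RNA per cell cannot be told apart.

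The scaling between libraries bears on the direction. TMM, the scaling used here, raised OE-WT against CTRL relative to total counts, and with total counts alone the median of all genes moved to -0.08, 3 members were called higher and 4 lower, and the split of all calls went from 1334 higher and 1642 lower to 733 and 2451. PKM, DLAT and IDH3A stayed higher and IDH2 and PGLS lower, and PFKL and PFKFB4 were then called lower as well. DESeq2 called 6 members higher and 1 lower, and 522 higher and 855 lower among all 14133 genes.

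**Figure D1:**
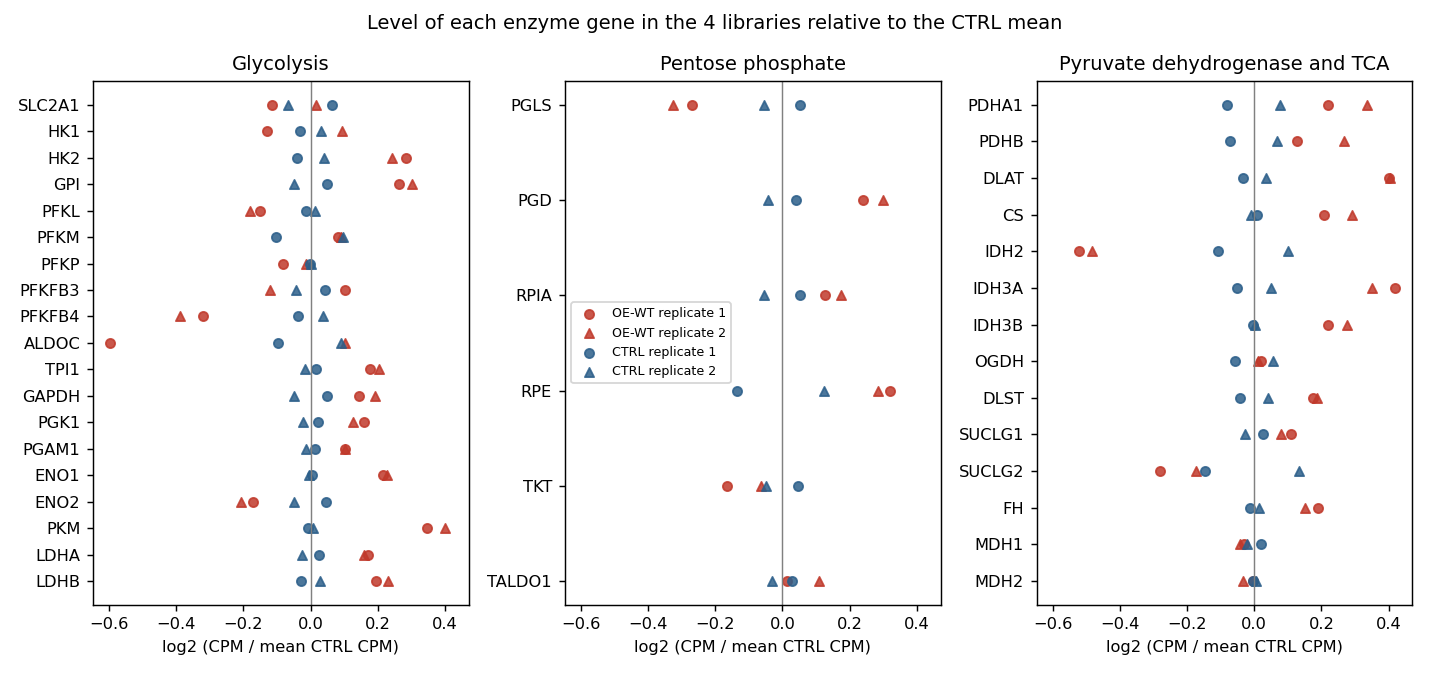
Level of each of the 39 enzyme genes in each library, as the log2 ratio of its CPM to the mean of the CTRL libraries (x axis), by pathway; red is OE-WT, blue is CTRL, circles are replicate 1 and triangles replicate 2. PKM, DLAT and IDH3A lie to the right in both OE-WT libraries and IDH2 to the left, and ALDOC, at or under 1 CPM, is spread over both sides.

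Glycolysis led in absolute level. Per kilobase of merged exons, GAPDH had the highest mean level of all members in CTRL, at 1595 CPM per kb, followed by the glucose transporter SLC2A1 (334), ENO1 (316), TPI1 (237), PKM (217) and LDHB (201). The order depends on the length: per kilobase of canonical transcript, GAPDH (2974) was followed by ENO1 (925), PKM (807), SLC2A1 (654), TPI1 (473) and LDHB (460). Of the 19 genes, 6 rose, 0 fell and 13 did not pass the test, where 9.44% of all genes rose and 11.6% fell. By DESeq2 4 were higher and 0 lower, where 522 and 855 of all 14133 genes were so. At an unadjusted edgeR p below 0.05, 9 were higher and 2 lower, and the share of all genes there is not given here. The median log2 fold change of the 19 genes was 0.10. As a share of all counts, with no scaling between libraries, the 19 genes took 1.34% and 1.44% in OE-WT against 1.36% and 1.28% in CTRL, so the groups overlapped.

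Glucose entry and its first phosphorylation gave different answers for the transporter and the kinases. SLC2A1 (GLUT1), which brings glucose into the cell, measured 2043 and 2234 CPM in OE-WT and 2310.5 and 2113 CPM in CTRL. These values overlapped, and the log2 fold change was -0.05 ± 0.07 (SE; edgeR adjusted p = 0.691). HK2, the inducible hexokinase that traps glucose as glucose 6-phosphate, measured 64.7 and 62.8 CPM in OE-WT and 51.6 and 54.5 CPM in CTRL. Both OE-WT libraries were above both CTRL libraries, and HK2 rose by a log2 fold change of 0.26 ± 0.08 (adjusted p = 0.0161). HK1, the more widely expressed hexokinase, measured 57.8 and 67.5 CPM in OE-WT and 61.9 and 64.7 CPM in CTRL, which overlapped (log2 fold change -0.01 ± 0.08).

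GPI, the isomerase that makes fructose 6-phosphate, had 308 and 316 CPM in OE-WT and 265 and 248 CPM in CTRL. The groups were apart, and GPI rose by 0.28 ± 0.06 on the log2 scale (edgeR adjusted p = 0.00326). The next step, phosphofructokinase, commits sugar to glycolysis, and none of its genes passed the test. PFKL, the liver-type subunit, had 123 and 120.2 CPM in OE-WT and 135 and 137 CPM in CTRL. Its log2 fold change was -0.17 ± 0.07 (edgeR adjusted p = 0.0779, and 0.0182 with library size only). With a GC trend removed the log2 fold change of PFKL was 0.014 (edgeR adjusted p = 0.922). PFKM, the muscle type, had 52.5 and 52.9 CPM in OE-WT against 46.2 and 53.1 CPM in CTRL, which overlapped, and PFKP, the platelet type, had 105 and 110.5 CPM against 111 and 112 CPM.

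PFKFB3 and PFKFB4 make fructose 2,6-bisphosphate, the activator of phosphofructokinase. PFKFB3 had 28.9 and 24.8 CPM in OE-WT and 27.8 and 26.1 CPM in CTRL. PFKFB4 had 8.56 and 8.16 CPM in OE-WT and 10.4 and 10.96 CPM in CTRL, with OE-WT below CTRL, a log2 fold change of -0.35 ± 0.16 and an edgeR adjusted p of 0.122 (0.0428 with library size only). ALDOC, the brain-type aldolase, was at 0.604 and 0.983 CPM in OE-WT and 0.855 and 0.974 CPM in CTRL, so a difference of this size was not detectable at this depth.

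In the later steps of the pathway, which make ATP and pyruvate, log2 fold changes of the main enzymes were above 0. TPI1, which interconverts the triose phosphates, had 724 and 737 CPM in OE-WT and 647 and 632 CPM in CTRL, and rose by 0.19 ± 0.06 on the log2 scale (edgeR adjusted p = 0.036). GAPDH, the NADH-forming dehydrogenase that the study used as a reference transcript in RT-qPCR, had 4225 and 4364 CPM in OE-WT and 3949.7 and 3693 CPM in CTRL. OE-WT lay above CTRL, but the difference of 0.17 ± 0.07 did not pass (adjusted p = 0.109; 0.0154 with a GC trend removed). PGK1, an ATP-forming kinase, and PGAM1, the mutase after it, differed by 0.14 ± 0.06 and 0.10 ± 0.06, neither past the threshold.

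ENO1, the main enolase, had 1913 and 1929.8 CPM in OE-WT and 1652 and 1642 CPM in CTRL, and rose by 0.22 ± 0.07 (edgeR adjusted p = 0.0213). ENO2, the neuronal enolase, had 17.4 and 17.0 CPM in OE-WT and 20.3 and 19.0 CPM in CTRL, with OE-WT below CTRL, and did not pass (log2 fold change -0.19 ± 0.12). PKM, pyruvate kinase, which forms ATP and pyruvate (GRCh38 chr15:72199029-72231819, - strand), had the strongest call of the pathway. It measured 2368 and 2457 CPM in OE-WT against 1849 and 1872 CPM in CTRL, so both OE-WT libraries stood well clear of CTRL. The rise was 29.7%, a log2 fold change of 0.37 ± 0.07 (adjusted p = 0.000452), and gene-level counts do not separate its M1 and M2 forms. LDHB, the lactate dehydrogenase subunit of heart, had 686 and 703 CPM in OE-WT and 587 and 611 CPM in CTRL and rose by 0.21 ± 0.06 (adjusted p = 0.021). LDHA, the muscle-type subunit, had 758 and 751 CPM against 686 and 661 CPM, a similar difference of 0.16 ± 0.06 that did not pass (adjusted p = 0.0723).

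Of the 6 glycolysis calls, only PKM also passed with library size only, and PKM and GPI passed with each of the 4 libraries left out in turn. TPI1 (edgeR adjusted p from 0.0834 to 0.163) and ENO1 (0.0592 to 0.106) passed with none left out, HK2 was lost without OE-WT replicate 1 (0.0742) or CTRL replicate 1 (0.135), and LDHB without OE-WT replicate 2 (0.114) or CTRL replicate 1 (0.142).

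**Figure D2:**
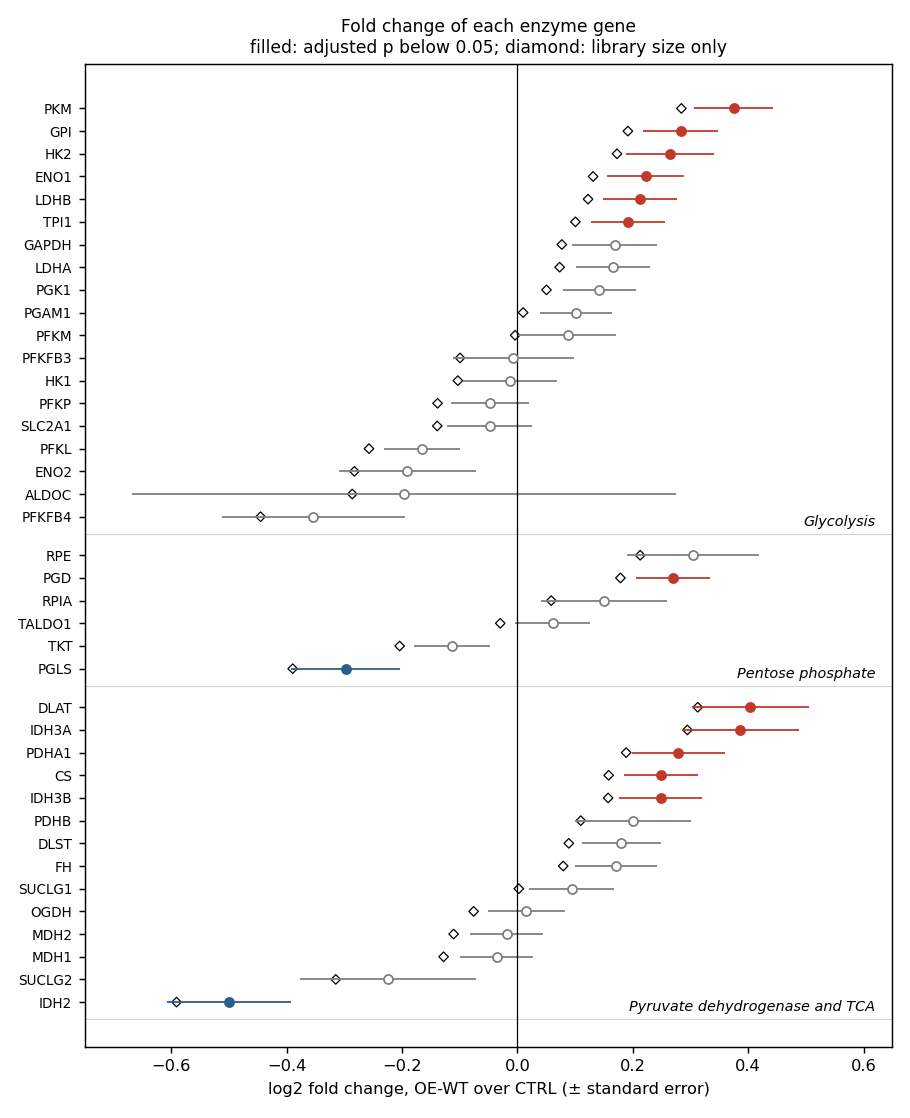
Log2 fold change of each enzyme gene, OE-WT over CTRL (x axis), with bars of 1 standard error from the edgeR fit on 2 libraries per group; filled circles passed an adjusted p below 0.05 (red higher, blue lower), open circles did not, and diamonds are the values with library size only. Of the 14 filled genes 12 lie to the right of 0, and the diamonds lie to the left of the circles throughout.

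In the pentose phosphate pathway the oxidative enzymes among the members moved in opposite directions. PGD, which makes NADPH and ribulose 5-phosphate (GRCh38 chr1:10398592-10420511, + strand), had 286 and 298 CPM in OE-WT and 249 and 235 CPM in CTRL. The groups were apart and PGD rose by 0.27 ± 0.06 on the log2 scale (edgeR adjusted p = 0.00472). PGLS, the lactonase one step before it, had 28.6 and 27.5 CPM in OE-WT and 35.8 and 33.2 CPM in CTRL, with OE-WT below CTRL. It fell by 18.6% (log2 fold change -0.30 ± 0.09, adjusted p = 0.0287).

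The non-oxidative branch, which reshuffles sugar phosphates between ribose and glycolysis, gave no call. RPE, the epimerase, had 25.3 and 24.7 CPM in OE-WT and 18.4 and 22.1 CPM in CTRL, above CTRL in both libraries, with a log2 fold change of 0.30 ± 0.11 (edgeR adjusted p = 0.0629; 0.0184 without CTRL replicate 2). RPIA, the isomerase, and TALDO1, transaldolase, differed by 0.15 ± 0.11 and 0.06 ± 0.07. TKT, transketolase, had 318 and 341 CPM in OE-WT against 368 and 345 CPM in CTRL, a log2 fold change of -0.11 ± 0.07.

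The median over the 6 genes was 0.11, with 1 rise and 1 fall, where 9.44% of all genes rose and 11.6% fell. By DESeq2 1 was higher and 0 lower, where 522 and 855 of all 14133 genes were so. PGD passed with each library left out but not with library size only (edgeR adjusted p = 0.126). PGLS passed with library size only but was lost with a GC trend removed (0.543), by DESeq2 (0.199) and with OE-WT replicate 1 (0.0645), OE-WT replicate 2 (0.1) or CTRL replicate 1 (0.197) left out.

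The pyruvate dehydrogenase and TCA genes had a median log2 fold change of 0.18. There were 5 rises, 1 fall and 8 members that did not pass, where 9.44% of all genes rose and 11.6% fell. By DESeq2 1 was higher and 1 lower, where 522 and 855 of all 14133 genes were so. At an unadjusted edgeR p below 0.05, 7 were higher and 1 lower, and the share of all genes there is not given here. DLAT, the acetyl-transferring E2 core of the pyruvate dehydrogenase complex (GRCh38 chr11:112025408-112064404, + strand), had 28.8 and 28.9 CPM in OE-WT and 21.3 and 22.3 CPM in CTRL. Its rise of 32.3% (log2 fold change 0.40 ± 0.10, edgeR adjusted p = 0.00673) was the largest among the members that passed. PDHA1, the catalytic E1 alpha subunit, had 60.5 and 65.6 CPM in OE-WT and 49.2 and 54.9 CPM in CTRL and rose by 0.28 ± 0.08 (adjusted p = 0.0169). PDHB, its E1 beta partner, had 29.1 and 32.0 CPM against 25.3 and 27.9 CPM, with OE-WT above CTRL but short of the threshold (0.20 ± 0.10, adjusted p = 0.168).

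CS, citrate synthase, which joins acetyl-CoA to oxaloacetate, had 206 and 219 CPM in OE-WT and 179.9 and 178 CPM in CTRL and rose by 0.25 ± 0.06 (edgeR adjusted p = 0.00823). The NAD-dependent isocitrate dehydrogenase, a main control point of the cycle, rose in both of its member subunits, while its remaining subunit IDH3G had 41.4 and 41.5 CPM in OE-WT and 41.7 and 32.6 CPM in CTRL and did not pass. IDH3A, its catalytic subunit, had 30.5 and 29.1 CPM in OE-WT and 22 and 23.6 CPM in CTRL, a log2 fold change of 0.39 ± 0.10 (adjusted p = 0.00892). IDH3B, a further subunit, had 77.8 and 81.0 CPM against 66.7 and 67.0 CPM, a log2 fold change of 0.25 ± 0.07 (adjusted p = 0.0159). For IDH3A the gene ACSBG1 overlaps on the opposite strand, carried 55.5% as many counts and rose by 0.44 (adjusted p = 0.027), and the strand setting of the counting is not given in the sources used here.

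IDH2, the mitochondrial NADP-dependent isocitrate dehydrogenase (GRCh38 chr15:90083045-90102477, - strand), went the other way. It had 21.0 and 21.5 CPM in OE-WT and 27.9 and 32.2 CPM in CTRL, so OE-WT was below CTRL in both libraries. The fall of 29.3% (log2 fold change -0.50 ± 0.11, edgeR adjusted p = 0.00196) was the largest decrease of any member, and it passed under every scaling, test, filter and left-out library tried.

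The other members that act in the cycle did not pass. DLST, the E2 subunit of the 2-oxoglutarate dehydrogenase complex, differed by 0.18 ± 0.07 (edgeR adjusted p = 0.064; 0.0449 with a GC trend removed), and OGDH, its E1 subunit, by 0.02 ± 0.07. FH, fumarase, differed by 0.17 ± 0.07 (adjusted p = 0.0949) and SUCLG1, the shared alpha subunit of succinyl-CoA ligase, by 0.09 ± 0.07. SUCLG2, the GTP-forming beta subunit, had 10.8 and 11.6 CPM in OE-WT and 11.8 and 14.4 CPM in CTRL, a log2 fold change of -0.22 ± 0.15. The malate dehydrogenases, cytosolic MDH1 and mitochondrial MDH2, differed by -0.04 ± 0.06 and -0.02 ± 0.06.

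DLAT and IDH2 passed with each of the 4 libraries left out. CS was lost without OE-WT replicate 2 (edgeR adjusted p = 0.0759), IDH3B and PDHA1 without OE-WT replicate 2 (0.102 and 0.133) or CTRL replicate 1 (0.0769 and 0.195), and IDH3A without OE-WT replicate 1 (0.0506) or CTRL replicate 1 (0.071); with library size only, DLAT, IDH3A and IDH2 passed, and with DESeq2, CS and IDH2.

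Shares within an enzyme family do not depend on the scaling between libraries. They were computed per library from counts per kilobase of merged exons. With 2 libraries against 2 the smallest two-sided p of an exact permutation test is 0.333, so none could pass a threshold. Groups that lie apart are frequent at this size: among single genes, OE-WT lay above CTRL for 29.9% and below for 30.2% of all genes tested. The HK1 share of HK1 and HK2 was 43.5% and 48.1% in OE-WT against 50.8% and 50.5% in CTRL, lower in both OE-WT libraries. The length chosen matters for the level, and with canonical transcripts the same share was 58.3% and 62.7% against 65.2% and 64.9%. Within phosphofructokinase, PFKL took 39.8% and 38.5% in OE-WT against 42.2% and 41.5% in CTRL, PFKM took more in OE-WT (21.0% and 20.9% against 17.8% and 19.8%) and PFKP overlapped. PFKFB3 was 77.1% and 75.2% of PFKFB3 and PFKFB4 in OE-WT against 72.7% and 70.4% in CTRL. ENO1 took 98.9% of ENO1 and ENO2 in both OE-WT libraries against 98.5% and 98.6% in CTRL. This share leaves out ENO3, which had 67.6 CPM per kb of merged exons in OE-WT and 60.7 in CTRL. ENO3 overlaps PFN1 on the opposite strand.

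LDHA made up 35.4% and 34.6% of LDHA and LDHB in OE-WT and 36.6% and 34.9% in CTRL, which overlapped, so the call for LDHB and the missed call for LDHA did not come with a separated share. Of the isocitrate dehydrogenases that use NADP, the cytosolic IDH1 took 75.7% and 74.8% of IDH1 and IDH2 in OE-WT against 70.8% and 65.9% in CTRL, while IDH1 itself measured 109.9 and 108 CPM against 114 and 105 CPM. SUCLG2 took 64.7% and 72.8% of the beta subunits of succinyl-CoA ligase in OE-WT against 77.3% and 76.8% in CTRL. With canonical transcripts its share was 36.4% and 45.5% against 51.6% and 50.8%, so which subunit is the larger depends on the length chosen. The ATP-forming SUCLA2 was at 16.9 and 12.5 CPM against 9.95 and 12.5 CPM. PDHA1 was 66.4% and 66.1% of PDHA1 and PDHB against 64.9% and 65.2% (with canonical transcripts 48.3% and 48.0% against 46.6% and 46.9%). IDH3A was 12.9% and 11.9% of IDH3A and IDH3B against 11.04% and 11.7%. The malate dehydrogenases and the aldolases overlapped, the latter with ALDOA between 99.85% and 99.91% in every library.

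**Figure D3:**
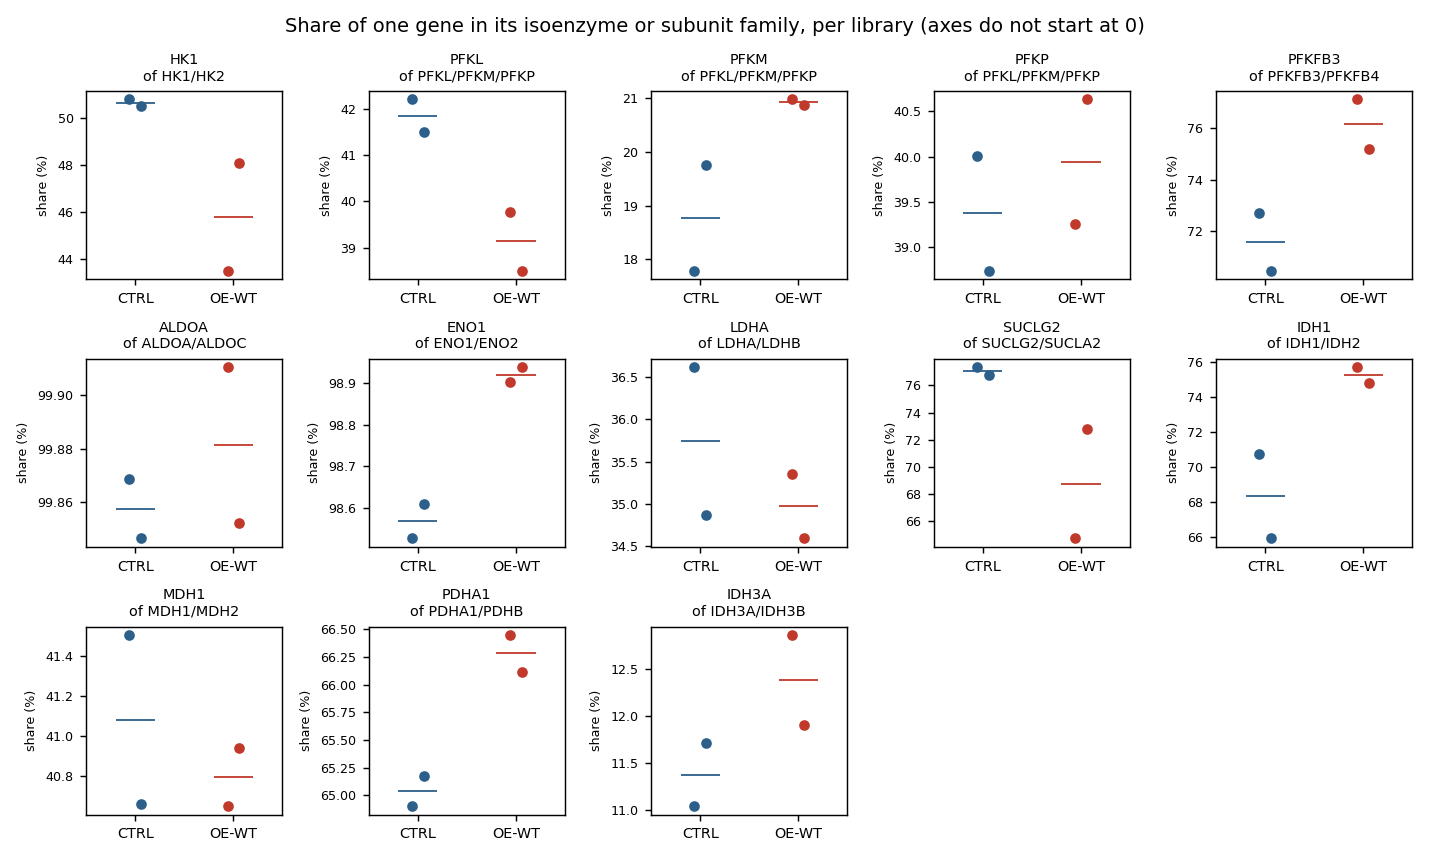
Share of 1 gene in the summed level of its family (y axis, percent of counts per kilobase of merged exons) in each library; points are libraries, bars are group means (n = 2), and the axes do not start at 0. The groups are apart for IDH1, SUCLG2, HK1, PFKL, PFKM, PFKFB3, ENO1, PDHA1 and IDH3A, and overlap for PFKP, ALDOA, LDHA and MDH1. Among single genes, the levels of 29.9% (OE-WT above) and 30.2% (OE-WT below) of all genes tested were apart.

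Other genes of the same pathways were read from the same fit. Of 19 further genes of glycolysis, gluconeogenesis and lactate transport tested, 1 rose and 3 fell, where 9.44% and 11.6% of all genes did so. With library size only 1 rose and 7 fell, where 733 and 2451 of all 14133 genes did so. In the main fit 2 rose and 7 fell at an unadjusted edgeR p below 0.05. The share of all genes at that unadjusted p is not given here. The median log2 fold change of the 19 further genes was 0.05, and 16 others were too low to test. The lactate exporter SLC16A3 (MCT4) had 246 and 273 CPM in OE-WT and 384 and 383 CPM in CTRL and fell by 32.3% (edgeR adjusted p = 3.8e-06). BSG, the chaperone that carries it to the membrane, had 1357 and 1500.3 CPM against 1896 and 1777 CPM and fell by 22.2% (adjusted p = 0.000983). PCK2, the mitochondrial enzyme that makes phosphoenolpyruvate from oxaloacetate, fell by 34.5%. PGAM5, which rose by 36.4%, shares its name with phosphoglycerate mutase but is a mitochondrial protein phosphatase. ENO3, at 288 and 292 CPM in OE-WT, overlaps PFN1 on the opposite strand, which had 275% of its counts.

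Of 7 further pentose phosphate genes tested, 0 rose and 1 fell at an edgeR adjusted p below 0.05. Across all genes tested 9.44% rose and 11.6% fell at that adjusted p. By DESeq2 0 of the 7 rose and 1 fell, where 522 and 855 of all 14133 genes did so. At an unadjusted edgeR p below 0.05, 1 rose and 1 fell, and the share of all genes there is not given here. H6PD, which starts the pathway inside the endoplasmic reticulum, had 15.8 and 17.8 CPM in OE-WT and 26.8 and 23.3 CPM in CTRL and fell by 32.9%. Of 39 further genes around pyruvate dehydrogenase and the TCA cycle, 6 rose and 2 fell by edgeR, against 9.44% and 11.6% of all genes. By DESeq2 2 rose and 1 fell, where 522 and 855 of all 14133 genes did so. The median of the 39 genes was 0.08. MPC1, a subunit of the carrier that brings pyruvate into mitochondria, had 27.8 and 28.1 CPM in OE-WT and 18.7 and 19.0 CPM in CTRL and rose by 48.2% (adjusted p = 0.000535). SLC25A13, an aspartate-glutamate carrier, rose by 32.6%, DLD, the E3 subunit shared by the 2-oxo acid dehydrogenases, by 28.1%, and GOT2, the mitochondrial aspartate aminotransferase, by 23.7%. PDPR, a regulator of pyruvate dehydrogenase phosphatase, fell by 21.5%, and SDHA, the flavoprotein of succinate dehydrogenase, had between 129 and 130 CPM in both OE-WT libraries and 153 and 162 CPM in CTRL and fell by 17.6% (adjusted p = 0.00442). With library size only, MPC1 and SLC25A13 stayed higher and 4 of the 39 genes were lower, where 733 and 2451 of all 14133 genes were so. The median of the 39 genes then turned to -0.0097, and that of the further glycolysis genes to -0.04.

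Of 15 regulators of these genes tested, 2 rose and 0 fell by edgeR, where 9.44% and 11.6% of all genes did so. By DESeq2 0 rose and 0 fell, where 522 and 855 of all 14133 genes did so. TFAM, which packages and transcribes mitochondrial DNA, had 21.7 and 18.3 CPM in OE-WT and 14.6 and 15.1 CPM in CTRL and rose by 34.3% (edgeR adjusted p = 0.021; 0.058 with library size only). MYC and HIF1A did not pass, with log2 fold changes of 0.03 ± 0.07 and 0.27 ± 0.14.

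Of 16 HIF targets outside the members that were tested, 0 rose and 8 fell at an edgeR adjusted p below 0.05. At that threshold 11.6% of all genes were lower. By DESeq2 0 rose and 4 fell, where 522 and 855 of all 14133 genes did so. At an unadjusted edgeR p below 0.05, 0 rose and 9 fell, and the share of all genes there is not given here. The median log2 fold change was -0.33. ADM, the vasodilator peptide adrenomedullin, had 43.3 and 44.7 CPM in OE-WT and 83.6 and 81.1 CPM in CTRL and fell by 46.6% (adjusted p = 4.08e-08). STC2, a secreted glycoprotein, had 1.41 and 1.67 CPM against 4.35 and 3.57 CPM and fell by 61.0%, and ANGPTL4, an inhibitor of lipoprotein lipase, fell by 44.1%. NDRG1, a stress-responsive gene, fell by 33.9%. P4HA2, a subunit of collagen prolyl 4-hydroxylase, fell by 25.3%, and BNIP3L, a mitophagy receptor, had 35.0 and 37.0 CPM against 45.5 and 44.3 CPM (log2 fold change -0.32 ± 0.09). VEGFA, the angiogenic factor, had 93.0 and 93.3 CPM against 99.3 and 91.8 CPM, which overlapped. Over all alternatives and left-out libraries the number that fell ranged from 4 to 9, and 0 rose in each. The difference between this list and the glycolysis genes was not tested.

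**Figure D4:**
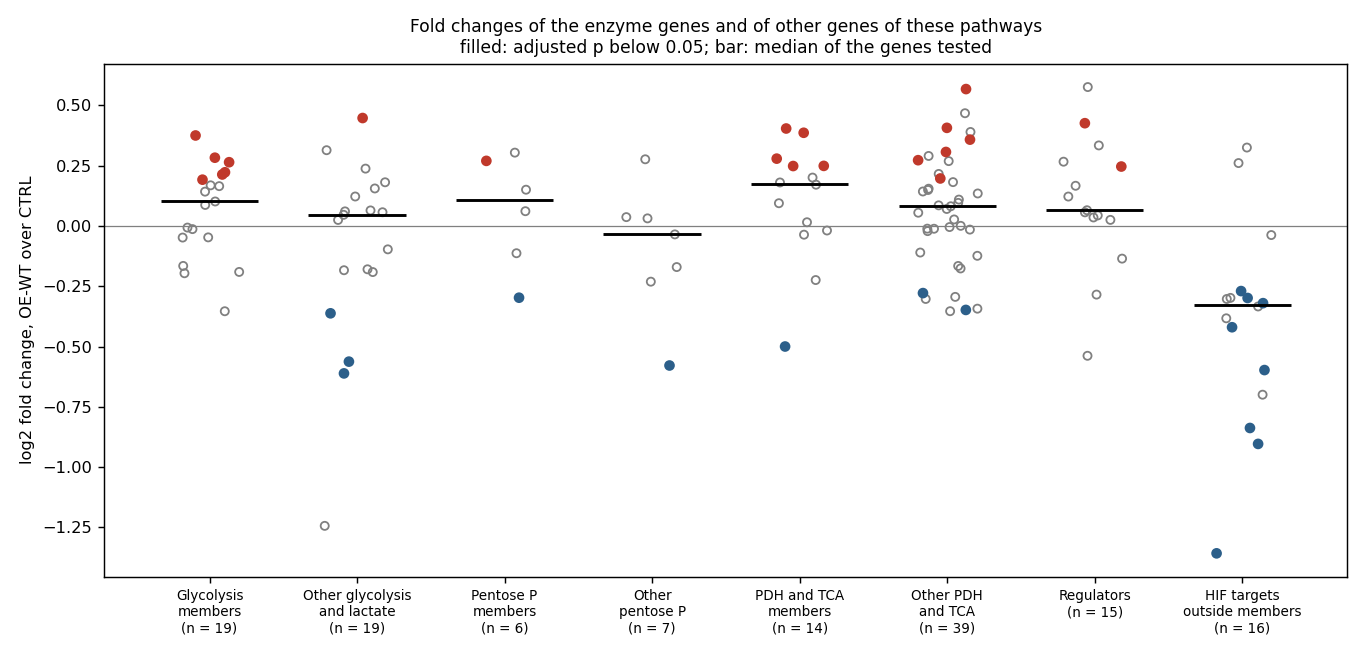
Log2 fold change, OE-WT over CTRL (y axis), of every tested gene of the 3 groups of enzyme genes and of the other lists, with the number tested under each name; filled points passed an edgeR adjusted p below 0.05 (red higher, blue lower) and bars are medians. Filled points of the HIF targets all lie below 0, and those of the glycolysis members all lie above 0.

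Copies and overlapping genes could share reads with the members. The table held 120 rows named as pseudogenes of 18 members, which took at most 0.738% of the summed counts of a member and its pseudogenes in any library (for LDHA). Apart from ACSBG1 at IDH3A, an unnamed long non-coding RNA opposite GAPDH had 39.1% of its counts, PGLS-DT had 29.7% of those of PGLS, an unnamed RNA 25.1% of those of PDHB, and SENP1 13.6% of those of PFKM. Their part in the results was not tested. The median GC content of the exons was 54.0% for the glycolysis genes, 52.2% for the pentose phosphate genes and 46.6% for the pyruvate dehydrogenase and TCA genes, against 49.0% for the 11663 protein-coding genes tested. With a GC trend removed per library, 13 members passed: LDHB, PDHA1 and PGLS were lost, and GAPDH and DLST were gained.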

How the data were processed

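DLD1 libraries of OE-WT and CTRL (2 each) were analysed. The deposited values are raw counts of reads per gene, with 1 column per library; according to the paper the authors trimmed with Cutadapt, aligned with HISAT2 and counted with HTSeq, while the submitters' processing notes list HISAT2 2.2.1, featureCounts 2.0.0 and DESeq2 1.34.0. The paper describes ribosomal RNA removal and more replicates, which it calls biological, and the labels poly(A) selection. The annotation release is not given in the sources used here; GENCODE release 44 (GRCh38) gave 57532 identifiers a symbol.

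Counts were filtered by group (edgeR filterByExpr, minimum count 10), scaled by TMM and tested with edgeR 4.0.16 (R 4.3.3) by quasi-likelihood, with no replicate block and Benjamini-Hochberg adjustment over 14133 genes. CPM use TMM-scaled library sizes; each standard error is the absolute fold change (log2) over the root of its F statistic. Depth was 10327498 to 12379671 counts. Alternatives were library size only, RLE factors, the likelihood ratio and exact tests of edgeR, DESeq2 1.42.0, other filters, a replicate block, each library left out and, chosen after seeing the data, a GC trend (lowess, span 0.3) removed and canonical transcript lengths.

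Members and lists were chosen with earlier results of these data known. Named with values in every library were members past the threshold, families whose shares were apart and GAPDH, and of each other list at most the 6 largest changes past it; IDH1, SUCLA2, ENO3, VEGFA, MYC, HIF1A and members named beside these were chosen after their values were seen. Figures used Python 3.11.15 and matplotlib 3.10.9. Some genes of the lists are not reported here. Other assays were not analysed here.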

Additional observations from a re-analysis of the deposited data

How the results depend on the processing

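With 2 libraries per group and 10327498 to 12379671 counts, changes of the size seen here lie close to the limit of the test. The 12 members higher and 2 lower became 3 and 4 with library size only and 6 and 1 with DESeq2; the count lower was also 1 with no filter and with a GC trend removed. With a library left out, 5 to 11 were higher and 1 to 2 lower, the lone library being assumed to vary like the other group. Main medians of the glycolysis, pentose phosphate and pyruvate dehydrogenase and TCA genes were 0.10, 0.11 and 0.18. They became 0.0098, 0.014 and 0.084 with library size only, the glycolysis median 0.082 with no filter, and the 3 medians 0.062, 0.11 and 0.10 with a GC trend removed. Left-out libraries gave 0.092 to 0.12, 0.060 to 0.15 and 0.13 to 0.20. The cause of these shifts was not tested.

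Log2 fold changes changed sign for some members that did not pass. Among them were PFKL (-0.17 in the main fit) and ALDOC (-0.20). With a GC trend removed HK1 was 0.031, PFKL 0.014, PFKP 0.043, PFKFB3 0.055 and MDH2 0.0050. With library size only PFKM was -0.0041, TALDO1 -0.030 and OGDH -0.076, and OGDH was -0.0043 with no filter. Left-out libraries ranged from -0.12 to 0.020 for SLC2A1, -0.14 to 0.099 for HK1, -0.012 to 0.19 for PFKM, -0.12 to 0.092 for PFKFB3, -0.60 to 0.11 for ALDOC and -0.041 to 0.073 for OGDH. RLE size factors, the likelihood ratio and exact tests and at least 10 counts in every library kept the same 14 calls.

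Libraries with the same replicate number did not deviate together over the genes (correlation -0.068). With 2 libraries per group this cannot exclude that they were prepared as pairs. A replicate block gave 9 higher and 1 lower, with ENO1, LDHB, PGLS and TPI1 lost.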
